A study of Mus musculus with 6 samples.

Results

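The 10 genes described here encode the pre-B cell receptor (pre-BCR) and the proteins that pass on its signal: Igll1, Vpreb1 and Vpreb2, Cd79a and Cd79b, the kinases Lyn, Blk, Syk and Btk, and the adaptor Blnk. They were chosen by name, as 10 of 21938 protein-coding genes of GENCODE release M21 on GRCm38. For each gene, every peak of histone H3 lysine 4 trimethylation (H3K4me3), a mark of active promoters, was taken that lay within 2500 bp of an annotated transcription start site (TSS) or over the gene body. H3K4me3 was measured by ChIP-seq in 2 mouse cell lines. Scid.adh.2C2 is a T cell progenitor (pro-T) line, a subclone of a line from a spontaneous thymic lymphoma of CB17-Prkdc scid mice. The other is the study's B cell progenitor line, transformed with Abelson virus, called pre-B in its methods and pro-B in other places of the study, and pre-B in what follows. Each line had 2 H3K4me3 libraries, made with a Millipore antibody, and 1 input library, and both were grown in serum-containing RPMI1640 medium with no treatment. A line stands for 1 transformed clone or tumour, so that the cell line and its lineage cannot be told apart.

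The pre-BCR is the checkpoint receptor of B cell development. Newly made immunoglobulin μ heavy chain pairs with a surrogate light chain, which is built from λ5 (encoded by Igll1) and VpreB (Vpreb1 and Vpreb2), because no light chain gene has yet been rearranged. The complex signals through Igα and Igβ (Cd79a and Cd79b), whose cytoplasmic tyrosines are phosphorylated by Src family kinases such as Lyn and Blk. Syk then docks on the phosphorylated tails and, through the adaptor BLNK, brings Btk and phospholipase Cγ2 into the complex. T cell progenitors use a receptor of the same plan, with pre-Tα, the CD3 chains, Lck, Fyn, ZAP-70 and SLP-76.

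The deposited data are 1 peak list for each line, in which both replicates are combined, with 19604 peaks in the pre-B line and 15513 in Scid.adh.2C2. A peak's fold is its enrichment over the local background of the input, and the lists are on different scales: the median promoter peak had a fold of 19.3 in the pre-B line and 24.6 in Scid.adh.2C2. Folds are therefore also given as percentiles within a list. Neither the spread between replicates nor the depth of the libraries can be given, so that no test between the lines was possible, and unmarked means that the deposited list holds no peak there. The labels were checked on marker genes. Of 10 T progenitor markers, 4 had a promoter peak in the pre-B line and 10 in Scid.adh.2C2. Of 9 B progenitor markers, 8 had one in the pre-B line and 4 in Scid.adh.2C2. Of all protein-coding genes, 48.2% and 45.5% had one in these lines. The T markers Cd3e, Cd3d, Cd3g and Ptcra are also among the T-lineage counterparts described below, so that those counts share peaks with this check. Ebf1 and Pax5, transcription factors that define the B lineage, were marked in the pre-B list alone, and the recombinase gene Rag1 in the Scid.adh.2C2 list alone.

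Promoter sequences of RefSeq (GRCm38.p6) were found for 7 of the 10 genes, and there was no entry for Cd79b, Lyn and Blk. All stretches that lie before the first annotated exon in the window are printed, to show the base composition next to the starts and the near identity of Vpreb1 and Vpreb2, which limits how reads can be placed. No such bases remained for Blnk and for the upstream start of Syk. Each sequence runs 5′ to 3′ on the strand of the gene, with CpG dinucleotides in capitals. The windows are chr16:16863986-16864235 (minus strand) for Igll1, chr16:16869256-16869505 (minus strand) for Vpreb1, chr16:17980315-17980427 (plus strand) for Vpreb2, chr7:24897247-24897380 (plus strand) for Cd79a, chrX:134583141-134583390 (minus strand) for Btk and chr13:52596632-52596852 (plus strand) for the downstream start of Syk.
Igll1: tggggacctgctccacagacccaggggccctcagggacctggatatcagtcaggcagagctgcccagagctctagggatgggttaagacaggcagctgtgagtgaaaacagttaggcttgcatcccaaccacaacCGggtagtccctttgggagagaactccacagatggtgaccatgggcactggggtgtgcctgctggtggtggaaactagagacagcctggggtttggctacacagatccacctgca
Vpreb1: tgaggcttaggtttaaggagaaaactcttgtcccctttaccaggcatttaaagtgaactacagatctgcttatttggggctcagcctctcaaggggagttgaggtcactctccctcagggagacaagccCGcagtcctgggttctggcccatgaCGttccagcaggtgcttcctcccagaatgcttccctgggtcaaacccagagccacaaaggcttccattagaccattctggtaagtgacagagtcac
Vpreb2: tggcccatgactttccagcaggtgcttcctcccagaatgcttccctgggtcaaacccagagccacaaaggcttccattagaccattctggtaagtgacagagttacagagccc
Cd79a: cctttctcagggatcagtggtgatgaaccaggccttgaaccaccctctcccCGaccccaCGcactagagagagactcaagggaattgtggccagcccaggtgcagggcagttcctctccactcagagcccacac
Btk: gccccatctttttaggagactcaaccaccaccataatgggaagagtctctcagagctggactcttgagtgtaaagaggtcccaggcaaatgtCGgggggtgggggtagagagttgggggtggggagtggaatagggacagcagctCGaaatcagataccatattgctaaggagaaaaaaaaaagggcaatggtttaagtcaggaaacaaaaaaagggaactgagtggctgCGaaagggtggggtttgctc
Syk, downstream start: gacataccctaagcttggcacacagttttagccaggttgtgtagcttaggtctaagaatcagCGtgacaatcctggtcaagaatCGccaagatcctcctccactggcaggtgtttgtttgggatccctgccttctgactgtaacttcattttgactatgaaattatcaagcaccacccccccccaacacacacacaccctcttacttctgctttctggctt
CpG dinucleotides were sparse in all 6 stretches, from 0 in the 113 bases of Vpreb2 to 3 in the 250 bases of Btk. Over 106 aligned bases, the stretches of Vpreb1 and Vpreb2 were 98.1% identical.

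All 10 genes had a peak within 2500 bp of a TSS in the pre-B line, where 48.2% of all protein-coding genes had one. In Scid.adh.2C2, 2 of the 10 (Vpreb1 and Btk) had one, against 45.5% of all genes. Thus 8 of the 10 were marked in the pre-B list alone (5.97% of all genes), 0 in the Scid.adh.2C2 list alone (3.28%), 2 in both (42.2%) and 0 in neither (48.5%). The pro-T peaks near Vpreb1 and Btk did not reach the start of a protein-coding transcript of either gene. When a gene was counted only if such a start lay inside a peak, 9 of the 10 were marked in the pre-B line (43.7% of all genes) and 0 in Scid.adh.2C2 (41.9%). By class, 9 were then marked in the pre-B list alone (5.44%), 0 in the Scid.adh.2C2 list alone (3.66%), 0 in both (38.2%) and 1, Igll1, in neither (52.7%). With starts of noncoding transcripts included, 9 were marked in the pre-B line (45% of all genes) and 1, Vpreb1, in Scid.adh.2C2 (42.8%). These were 8 in the pre-B list alone (5.51%), 0 in the Scid.adh.2C2 list alone (3.4%), 1 in both (39.5%) and 1 in neither (51.6%). The counts of starts inside a peak were chosen after the peaks had been seen.

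**Figure D1:**
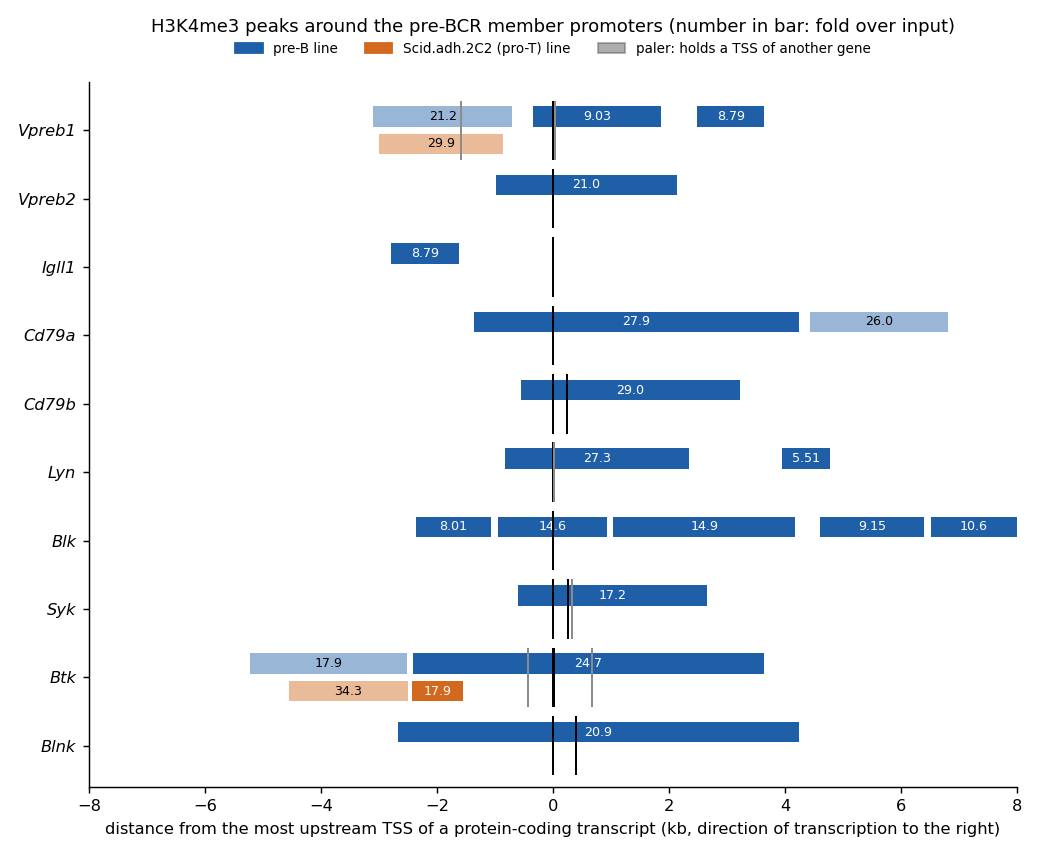
H3K4me3 peaks (bars) of the pre-B line (blue) and Scid.adh.2C2 (orange) in the promoter windows and bodies of the 10 genes, drawn out to 8 kb, with the distance from the most upstream start of a protein-coding transcript in kb on the x axis and the fold over input printed in each bar. Black lines are starts of protein-coding transcripts, grey lines other annotated starts, and paler bars also hold a start of another gene. Peaks outside these windows and bodies are not drawn. Blue bars cover the black lines of all genes but Igll1, and the 3 orange bars lie upstream of Vpreb1 and Btk.

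Of the surrogate light chain genes, Igll1 had no peak on its start, Vpreb1 had the lowest fold of the 9 members with a pre-B peak on a protein-coding start, and Vpreb2 had a fold close to the median of all genes marked in this way. Igll1 (ENSMUSG00000075370, chr16:16860671-16863985, minus strand) encodes λ5, the constant-like part of the surrogate light chain. No peak covered its start or its body in either line. The nearest pre-B peak, chr16:16865613-16866771, was 1159 bp wide with a fold of 8.79, at percentile 8.68 of the 12679 promoter peaks of the pre-B line, and it began 1628 bp upstream of the start. This peak lies between Igll1 and Vpreb1 and was counted for both. The nearest pro-T peak was 6138 bp away, at the start of Top3b, a DNA topoisomerase gene.

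Vpreb1 (ENSMUSG00000059305, chr16:16868403-16870843, minus strand), which encodes the variable-like part, had 2 further peaks in the pre-B line. The first, chr16:16867394-16869594, covered the start of the protein-coding transcript with its summit in an exon, was 2201 bp wide and had a fold of 9.03. The second, chr16:16869960-16872356, had a fold of 21.2 and covered the starts of Top3b and of noncoding Vpreb1 transcripts. The Scid.adh.2C2 list held only the counterpart of the second, chr16:16870123-16872249, with a fold of 29.9 and 868 bp from the protein-coding start. In percentiles, this Top3b-side peak ranked at 60.9 in the pre-B line and 73.1 in Scid.adh.2C2. The peak near Vpreb1 that both lists held was thus the one over the Top3b start.

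Vpreb2 (ENSMUSG00000059280, chr16:17980428-17981273, plus strand), a near copy of Vpreb1 on the same chromosome, was covered from end to end by a single pre-B peak, chr16:17979451-17982556, of 3106 bp and a fold of 21.0. The nearest pro-T peak was 50758 bp away, at Slc25a1. Aligned over 1082 bp, the regions of Vpreb1 and Vpreb2 were 96.5% identical. Of the stretches of 30 bases in the coding-start peak of Vpreb1, 68.6% occurred once in the genome, and 72.8% did in the peak of Vpreb2, against 99.0% in the peak of Cd79b. How reads that match both copies were placed is not given in the sources used here, so that the folds of Vpreb1 and Vpreb2 are uncertain.

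In the pre-B line, the genes of the signal chains had the highest folds on a protein-coding start among the members. Cd79a (ENSMUSG00000003379, chr7:24897381-24902197, plus strand) had a pre-B peak at chr7:24896012-24901617 that was 5606 bp wide with a fold of 27.9, longer than the gene of 4817 bp itself. Its IDR score, which ranks how well the replicates agree and has a maximum of 1000, was 639, whereas the peaks on the starts of the other members scored 1000. A second peak, chr7:24901804-24904190, with a fold of 26.0, overlapped the end of Cd79a and held the start of Arhgef1. The nearest pro-T peak, chr7:24902482-24902897, lay 5101 bp from the Cd79a start with a fold of 12.0 and beyond the end of the gene.

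Cd79b (ENSMUSG00000040592, chr11:106311341-106314762, minus strand) has 2 annotated starts, and both lay in 1 pre-B peak, chr11:106311537-106315321, of 3785 bp and a fold of 29.0. That peak ran 559 bp upstream and 3225 bp downstream, across nearly the whole gene. In Scid.adh.2C2 the nearest peak was 40355 bp away, at Smarcd2. Ighm, the gene of the μ heavy chain that the surrogate light chain pairs with, had its highest promoter-window fold at 19.0 in the pre-B line, and at 12.1 in Scid.adh.2C2, where the peak covered none of its annotated starts.

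Of the Src family kinases, Lyn (ENSMUSG00000042228, chr4:3678115-3813122, plus strand) had a pre-B peak of 3169 bp and a fold of 27.3 at chr4:3677291-3680459, over 3 of its 4 annotated starts. A start inside the gene at chr4:3756457, of a noncoding transcript, was unmarked in both lines. There were 2 weaker intronic peaks with folds of 5.51 and 10.4, and in the latter 45.5% of the 30-base stretches occurred once in the genome. Blk (ENSMUSG00000014453, chr14:63372836-63417037, minus strand), a kinase largely restricted to B cells, had a run of 5 peaks from chr14:63408507 to chr14:63419401 in place of 1 wide peak. The peak on its protein-coding start was 1886 bp wide with a fold of 14.6, the adjoining intronic peak 3133 bp wide with a fold of 14.9, and the other 3 had folds of 8.01, 9.15 and 10.6. The Scid.adh.2C2 list held no peak in either gene, and its nearest peaks lay 101796 bp from Lyn and 125683 bp from Blk.

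Syk (ENSMUSG00000021457, chr13:52583173-52648792, plus strand), the kinase that binds the phosphorylated tails of Igα and Igβ, was marked at 2 separate promoters in the pre-B line. The upstream peak, chr13:52582576-52585828, was 3253 bp wide with a fold of 17.2 and covered 2 protein-coding starts. The downstream peak, chr13:52596611-52597923, was 1313 bp wide with a fold of 12.7 and covered the third. These promoters differed in base composition, with a ratio of observed to expected CpG of 0.79 and 0.80 at the upstream starts and 0.14 at the downstream start, whose sequence is shown above. A further intronic peak had a fold of 7.53, and the nearest pro-T peak was 211074 bp away.

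Btk (ENSMUSG00000031264, chrX:134542336-134583570, minus strand), the Tec family kinase mutated in X-linked agammaglobulinemia, had a pre-B peak of 6048 bp and a fold of 24.7 at chrX:134579508-134585555 that covered all 4 distinct annotated starts. In Scid.adh.2C2 a peak of 885 bp, chrX:134584687-134585571, with a fold of 17.9, lay 1547 bp upstream of the main protein-coding start and held no annotated start. It overlapped the upstream end of the pre-B peak. Beside it, a peak at the start of the ribosomal protein gene Rpl36a had a fold of 17.9 in the pre-B line and 34.3 in Scid.adh.2C2. The 3′ end of Btk was overlapped in both lines by the peak at the start of Timm8a1, with folds of 25.6 in the pre-B line and 19.1 in Scid.adh.2C2. Of the 4 pro-T peaks at any member, 3 thus held the start of another gene.

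Blnk (ENSMUSG00000061132, chr19:40928927-40994535, minus strand), the adaptor that joins Syk to Btk and phospholipase Cγ2, had the widest single peak of the set, chr19:40990295-40997209, with 6915 bp and a fold of 20.9, over both of its starts. There were 3 intronic peaks with folds of 8.02, 6.45 and 7.02, between 12430 bp and 23971 bp from the nearest start. The nearest pro-T peak was 21595 bp away. Over all members, the pre-B line had 26 distinct peaks in the promoter windows and gene bodies, and Scid.adh.2C2 had 4. The full lists hold 19604 and 15513 peaks. Of the member peaks, 4 in the pre-B line and 3 in Scid.adh.2C2 held a start of another gene.

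The peaks on the protein-coding starts were also ranked among those of all genes in the pre-B line. Of the 9 members with such a peak in the pre-B line, 7 were wider than the median of all 9576 genes marked in this way, and 3 were in the widest 10%. By fold, 4 were above the median and 1 was in the highest 10%. The median width was 3253 bp for the members, 2374 bp for all marked genes and 2198 bp for the 1194 genes marked in the pre-B line alone. The median folds were 21.0, 21.5 and 18.6. The 11 T-lineage counterparts, genes of the pre-T cell receptor and its signaling, likewise had a median width of 2958 bp in Scid.adh.2C2, against 2149 bp for all genes marked there. Width depends on the depth of the libraries, whose part in these values was not tested.

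The order by width was Blnk (percentile 99.0), Btk (98.1), Cd79a (97.3), Cd79b (86.1), Syk (77.5), Lyn (75.4), Vpreb2 (74.1), Vpreb1 (42.4) and Blk (28.7). By fold it was Cd79b (91.6), Cd79a (87.6), Lyn (84.8), Btk (71.1), Vpreb2 (46.2), Blnk (45.4), Syk (23.8), Blk (12.7) and Vpreb1 (1.40). Among all promoter peaks of the pre-B line, the highest peak of Btk was at percentile 79.3 by fold and 45.9 by −log10 q. That of Vpreb2 was at 59.7 and 41.3, while the other members stayed on the same side of the median. The order by width depends on how the list divides a marked region. With pre-B peaks joined across gaps of up to 1000 bp, the region at Cd79a was 12427 bp wide, at Blk 10895 bp, at Btk 8849 bp and at Vpreb1 6744 bp, while Blnk kept 6915 bp, so that Blk went from the narrowest of these genes to the second widest. The joined regions at Cd79a, Btk and Vpreb1 took in the peaks at the starts of Arhgef1, Rpl36a and Top3b. Their widths are therefore not those of the member promoters alone. As single peaks, Blnk had the widest with a fold just under the median, whereas Lyn had a high fold over a moderate width. Differences between neighbours in these orders cannot be set against a replicate error. The peaks reached further downstream than upstream of the start in all of these genes but Blk, for which 49.5% of the peak lay downstream. The share ran from there to 85.2% at Cd79b, and was above the median of 69.8% over 9576 marked genes in 5 of the 9 members. It was below it in Vpreb2 (68.5%), Blnk (61.3%) and Btk (60.1%) as well as in Blk.

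**Figure D2:**
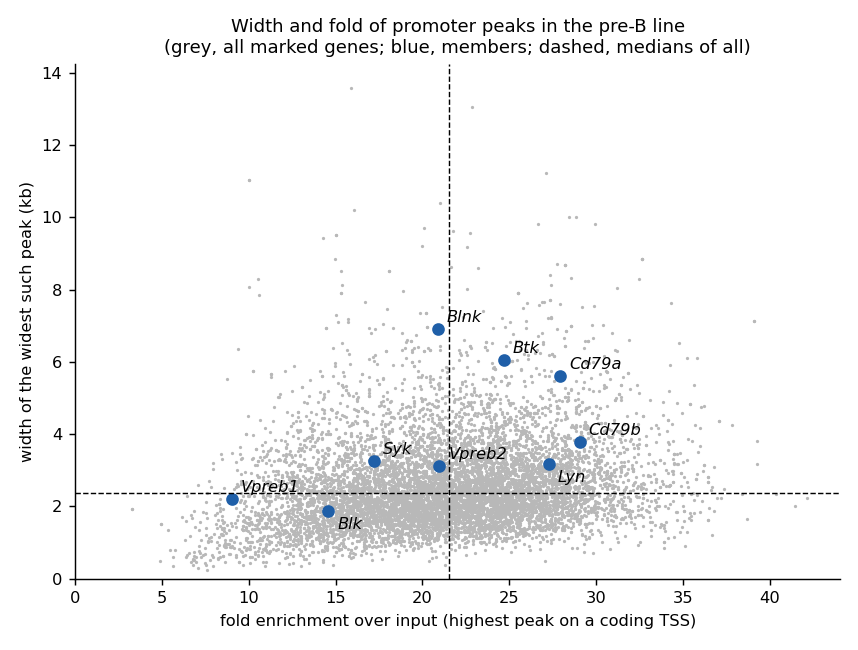
Width of the widest peak (y axis, kb) against the fold of the highest peak (x axis) on a protein-coding start in the pre-B line, for all 9576 marked genes (grey) and 9 members (blue), with dashed lines at the medians of all. Blnk, Btk and Cd79a lie well above the median width of 2374 bp, and Vpreb1 lies at the low end of the folds with 9.03.

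The starts of the members were poor in CpG dinucleotides. In 300 bp around each of their 16 protein-coding starts (250 before and 50 from the start on), the median ratio of observed to expected CpG was 0.18, against 0.53 over 54459 protein-coding starts. The ratio was under 0.4 at 12 of 16 member starts, in 9 genes, and at 41.2% of all starts. Lyn, with 0.67 and 0.66, and the upstream starts of Syk had more. Starts of the same gene share sequence, so that the 16 are not independent. The T-lineage counterparts had low ratios too, with a median of 0.29 and a ratio under 0.4 at 23 of 31 starts.

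Few starts of this composition were marked. Of all starts with a ratio under 0.2, 5.79% lay in a peak in the pre-B line and 3.91% in Scid.adh.2C2, against 75.2% and 74.5% of starts with a ratio of 0.8 or more. Of the 9 member starts under 0.2, 8 lay in a peak in the pre-B line, the exception being Igll1, and 0 in Scid.adh.2C2. The T-lineage counterpart starts under 0.2 likewise lay in Scid.adh.2C2 peaks, except for a start of Plcg1 (0.14). Between 0.2 and 0.4, where 15.0% of all starts were marked in the pre-B line, 3 of 3 member starts were (Cd79a and both starts of Blnk). The 4 CpG-richer starts of Lyn and Syk lay in pre-B peaks too, and in no Scid.adh.2C2 peak, although 61.5% of all starts with a ratio between 0.6 and 0.8 were marked there.

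**Figure D3:**
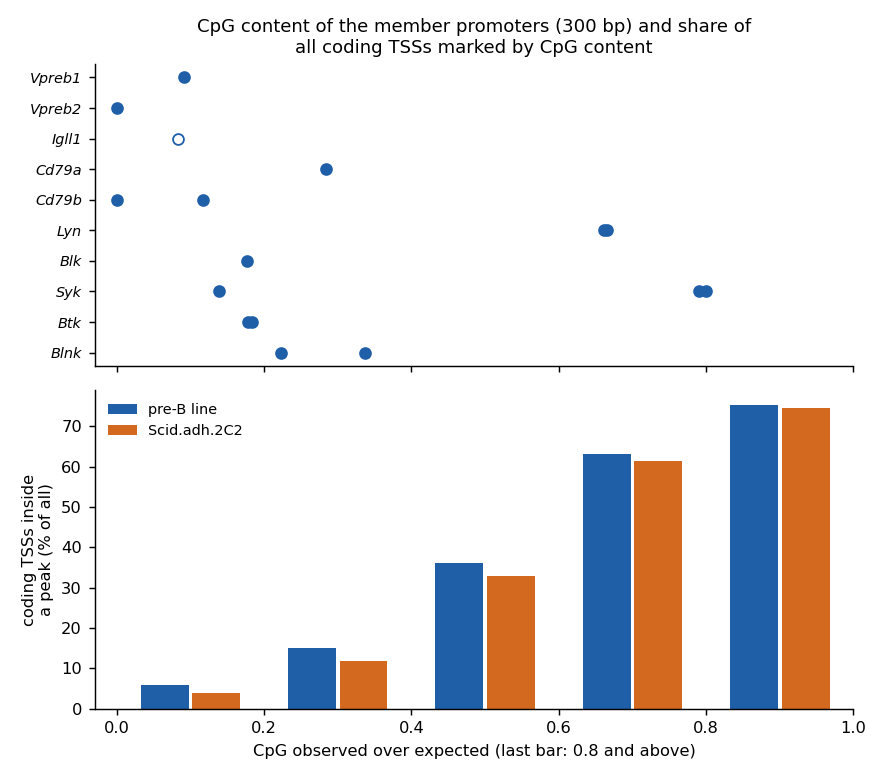
Upper panel, ratio of observed to expected CpG (x axis) at each protein-coding start of the 10 genes, filled where the start lay in a pre-B peak and open where it did not. Lower panel, share of all protein-coding starts that lay in a peak (y axis, %) by the same ratio, for the pre-B line (blue) and Scid.adh.2C2 (orange). Most members sit at the left, where 5.79% to 15.0% of all starts were marked in the pre-B line, and the open symbol is Igll1.

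Short motifs were counted in the same windows on both strands. CCCNNGGG, the core of sites for the B-lineage factor EBF1, occurred at 5 of 16 member starts, in Cd79b, Igll1 and Lyn, and at 15.6% of all starts. The windows of both Cd79b starts share a match, as do those of both Lyn starts. The 5 starts belong to 3 genes, so that the count of starts holds repeats. The share of all genes with a match was not computed, so that the number of genes cannot be set against 15.6%. In the Igll1 sequence shown above, CCCNNGGG begins 231 bases before the start. CANNTG, the E-box bound by E proteins, occurred at 13 of 16 member starts and 69.3% of all, GGAA, the core of ETS sites, at 15 of 16 and 95.5%, and TGTGGT, a RUNX core, at 3 of 16 and 15.0%. The TATAAA box was found at 0 of 16 member starts and 11.3% of all. A match gives only the letters in the window and says nothing of binding. Only exact matches were counted, so that a start without one may still hold a site with other letters.

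By the window of 2500 bp, most of the pathway beyond the receptor and its first kinases was marked in both lines. So were 42.2% of all protein-coding genes. Of 11 co-receptors and adaptors, 4 were marked in the pre-B list alone, 6 in both and 1 in neither. The 4 were Vpreb3 (fold 15.2 on an annotated start), Pik3ap1, an adaptor of phosphoinositide 3-kinase (15.2), Bank1 (17.7) and Lat2 (13.9). Another peak in the Vpreb3 window, with a fold of 17.9, held the start of Gm867 and no Vpreb3 start. Of 14 effectors, 2 were marked in the pre-B line alone, 10 in both and 2 in neither. The 2 were Plcg2, the phospholipase downstream of BLNK (23.6), and Vav3, a guanine nucleotide exchange factor (23.2).

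Of 12 inhibitors, 3 were marked in the pre-B line alone, 7 in both and 2 in neither. The 3 were the inhibitory receptors Cd22 (18.3) and Fcgr2b (15.7) and the adaptor Dok3 (12.8). Of 8 transcription factors that respond to the pre-BCR, 2 were marked in the pre-B line alone and 6 in both. These were Irf8, with a peak 10000 bp wide and a fold of 28.9, and Bach2 (26.3). Over these 45 genes, 11 were marked in the pre-B line alone (5.97% of all genes), 29 in both (42.2%), 5 in neither (48.5%) and 0 in Scid.adh.2C2 alone (3.28%). With a protein-coding start required inside a peak, 14 were marked in the pre-B line alone (5.44%) and 23 in both (38.2%). Then 6 were marked in neither (52.7%) and 2, Bcl10 and Foxo1, in Scid.adh.2C2 alone (3.66%). The genes added to the pre-B class were Cd81, Cd72 and Irf4. For 10 other kinases of the Src, Tec and Syk families, the window of 2500 bp was used again. Src was marked in the pre-B line alone, 5 in both and 4 in neither. With a protein-coding start required inside a peak, 4 were marked in both and Zap70 in Scid.adh.2C2 alone. Lck, Fyn and Zap70 are also counted among the T-lineage counterparts below.

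**Figure D4:**
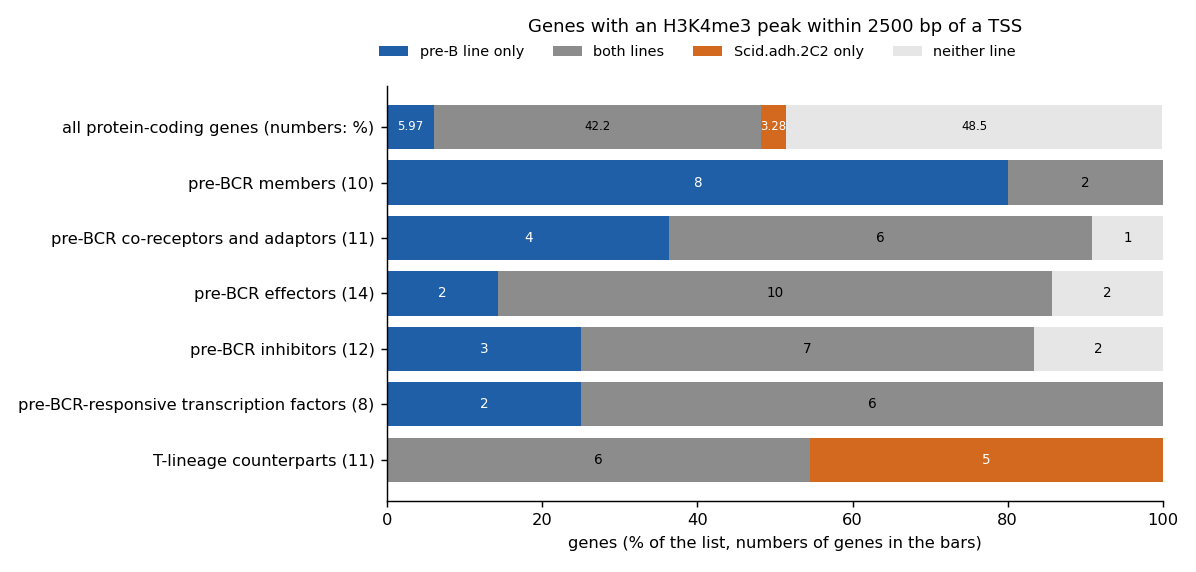
Share of genes (x axis, %) with a peak within 2500 bp of a start in the pre-B line alone (blue), both lines (dark grey), Scid.adh.2C2 alone (orange) or neither (light grey), for all protein-coding genes and each list, with numbers of genes in the bars. The members have 8 of 10 genes in the blue class, the 4 other pre-BCR lists between 2 and 4 genes each, and the T-lineage counterparts 5 of 11 in the orange class.

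The T-lineage counterparts were all marked in the pro-T line. Of 11 genes of the pre-T cell receptor and its signaling, 6 were marked in the pre-B line, where 48.2% of all genes were, and 11 in Scid.adh.2C2, where 45.5% were. Cd3e, Cd3g, Cd247, Ptcra and Lcp2 were marked in the Scid.adh.2C2 list alone. The 6 marked in both were Cd3d, Lck, Fyn, Zap70, Lat and Plcg1. In 8 pairs of genes with like roles, 4 had the B-lineage gene marked in the pre-B line alone and the T-lineage gene in Scid.adh.2C2 alone. With windows of 1000 bp and of 5000 bp, 3 of the 8 pairs did. When the start of a protein-coding transcript had to lie inside a peak, 4 did. The pair of Syk and Zap70 was then in place of Igll1 and Ptcra.

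The paired signal chains were marked in opposite lists, whereas Cd3d, which is in no pair, was marked in both. Cd79a and Cd79b had folds of 27.9 and 29.0 in the pre-B line and no promoter peak in Scid.adh.2C2, where Cd3e had 41.5 and Cd3g 38.0, the latter in a peak shared with Cd3d. In the pre-B line, a peak of 1048 bp on the downstream protein-coding start of Cd3d, at chr9:44985823, had a fold of 16.8. The upstream start of Cd3d, at chr9:44981786, lay in no pre-B peak. Both starts lay in Scid.adh.2C2 peaks. Blnk had 20.9 in the pre-B line, and Lcp2, which encodes the related adaptor SLP-76, 20.8 in Scid.adh.2C2. These near-equal folds were at percentile 45.4 and 20.7 of the genes marked in the respective list. In the pair of surrogate chains, Ptcra had a peak on its start in Scid.adh.2C2 with a fold of 16.6, whereas Igll1 had none on its start in either list.

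Among the kinases, the T-lineage genes Fyn and Lck were marked in both lists. Lyn and Blk were marked in the pre-B line alone, while Fyn had a fold of 21.8 in the pre-B line and 17.0 in Scid.adh.2C2, and Lck 16.8 and 16.0. For Zap70, the peak on a start had a fold of 20.2 in Scid.adh.2C2, and the pre-B peak in its window (18.8, 655 bp wide) covered no annotated start. Plcg2 had 23.6 in the pre-B line alone, and Plcg1 had 13.4 in the pre-B line and 26.3 in Scid.adh.2C2.

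**Figure D5:**
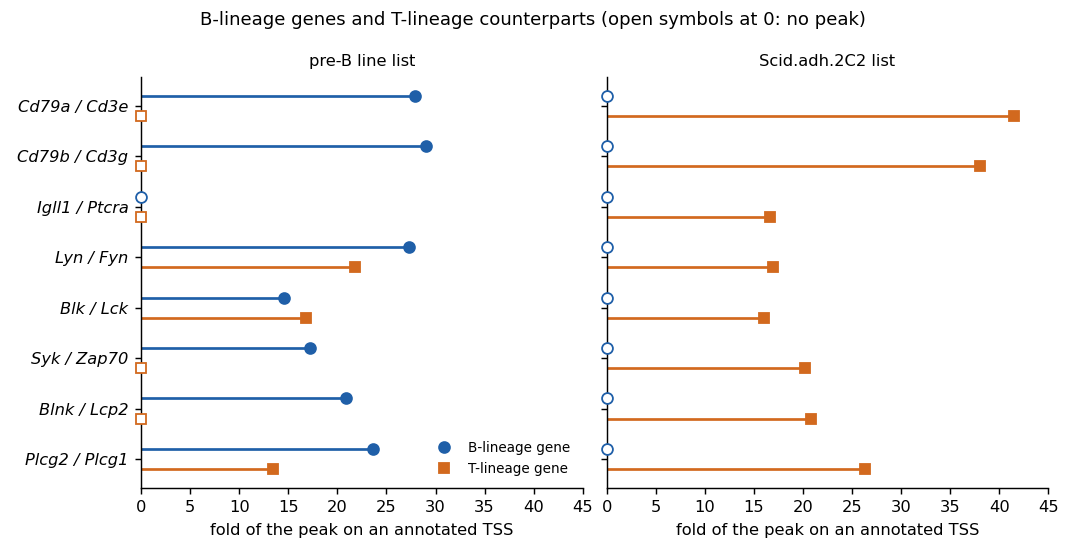
Fold of the highest peak on an annotated start (x axis) for 8 pairs of B-lineage (blue circles) and T-lineage genes (orange squares) in the pre-B list (left) and the Scid.adh.2C2 list (right), with open symbols at 0 where no peak covered a start. Every blue symbol is open on the right, and on the left the orange symbols of Fyn, Lck and Plcg1 are filled and the blue symbol of Igll1 is open.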

How the data were processed

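Peaks were analysed as deposited. Per the study's methods and the submitters' processing notes, the authors trimmed reads with Trim Galore (0.6.7), mapped them to mm10 (GRCm38) with Bowtie2 (2.4.4), called peaks with MACS2 (2.2.7.1) in narrow mode at q 0.05, and kept the optimal set at an irreproducible discovery rate (IDR) of 0.05. The treatment of multi-mapping reads is not given in the sources used here. The deposited score is the authors' IDR score, the deposited ratio is their fold enrichment over local background, and the deposited −log10 p-values and q-values are those of MACS2. No values were rescaled. The input libraries entered through the authors' peak calling alone.

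A promoter was 2500 bp either side of any GENCODE M21 TSS, marked by a peak overlapping by at least 1 bp. The promoter rule was tested on simulated peaks. Windows of 1000 and 5000 bp, stricter peaks, equal peak numbers, the summit inside the window and other choices of TSS were tried. Base composition was read from GRCm38.p6. By rule, all members, the genes of the pairs and the pathway and T-lineage genes marked in 1 line are named, and the rest are counted. Some genes of the fixed lists are not reported here and were left out of the counts. The members and lists were chosen with earlier results of these data known. Python 3.11.15, numpy 2.4.6, numba 0.67.0, Biopython 1.88 and matplotlib 3.10.9 were used.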

Additional observations from a re-analysis of the deposited data

How the results depend on the processing

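No paired analysis was possible because each line has 1 list in which both replicates are combined, and for the same reason no replicate could be left out. Of 202 recomputed counts, 182 stayed within 1.5 times the reported count and 20 did not. All 20 concern small counts. Members marked in Scid.adh.2C2, and in both lines, fell from 2 to 1 with a window of 1000 bp, with an annotated start inside a peak, or without peaks that hold a start of another gene, and to 0 with a protein-coding start inside a peak. Members marked in neither line rose from 0 to 1 with a window of 1000 bp, the summit inside the window, peaks of at least 10-fold, as many pre-B as Scid.adh.2C2 peaks, only peaks at the highest IDR score of 1000, an annotated start inside a peak, or a protein-coding start inside a peak. With only peaks at an IDR score of 1000, this member was Cd79a, whose promoter peak scored 639. With the other settings it was Igll1. The pathway genes marked in Scid.adh.2C2 alone rose from 0 to 1 with an annotated start inside a peak and to 2 with a protein-coding start inside a peak. Without peaks that hold a start of another gene, the T-lineage counterparts marked in the pre-B list alone rose from 0 to 1 and those marked in neither line from 0 to 2, and those marked in Scid.adh.2C2 alone fell from 5 to 3. The cause of these changes was not tested. The last choices, on starts inside a peak and on peaks of other genes, were added after seeing the data. For single members, 77 of 89 recomputed folds, percentiles and covered lengths stayed with the same peak, on the same side of the median or within 1.5 times, and 7 settings left no peak, at Igll1 in the pre-B line and at Vpreb1 and Btk in Scid.adh.2C2. The depth of the libraries is unknown, so that the limit for a weak peak cannot be given.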
